A study of Mus musculus with 6 samples.

Results

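The genes described here are 37 mouse genes of the endoplasmic reticulum (ER) folding machinery and of the unfolded protein response. They were named by gene symbol, by a rule that uses no measured value, though they were chosen with earlier results of these data known. All 37 had a gene row among the 22095 gene rows of the deposited table. They fall into 15 chaperones and folding enzymes, 4 genes for the stress sensors and the transcription factor Xbp1, 11 genes of ER-associated degradation and 7 genes of translocation and signal peptide cleavage. RNA came from CD8+ T cells, purified as naive cells from splenocytes of wild type C57BL/6 mice, an inbred strain. Both groups were stimulated through CD3 and CD28 by monoclonal antibodies during 48 h, in medium that held recombinant mouse IL-2. One group of 3 libraries received DMSO, the solvent, and the other group of 3 received 10 nM ponatinib, a kinase inhibitor developed against BCR-ABL that also binds many other kinases. The labels give no age or sex, and they do not say whether replicates came from different animals or cultures. The p-values therefore reflect the spread among these libraries alone, which may be technical.

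Secretory and membrane proteins enter the ER through the SEC61 channel, lose their signal peptide and are folded by chaperones led by BiP, the product of Hspa5. Proteins that fail to fold are drawn back into the cytosol and destroyed by the proteasome, a route called ER-associated degradation. When misfolded proteins build up, the membrane sensors IRE1 (Ern1), PERK (Eif2ak3) and ATF6 switch on the unfolded protein response: IRE1 splices Xbp1 mRNA, ATF6 is cut to release a transcription factor, and PERK slows translation and favours ATF4. Activated T cells enlarge their ER as they begin to make cytokines, granule proteins and surface receptors.

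The promoters of these genes are known for a sequence that ATF6 and XBP1 use, the ER stress response element (ERSE), spelled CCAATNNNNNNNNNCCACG. Windows from 250 bases before to 50 bases after each RefSeq start (build GRCm38.p6) were searched on both strands, and 31 of the 37 genes had a window. Hyou1, Manf, Atf6, Derl1, Sec61a1 and Ssr2 had none and were not searched. ERSE was present in 9 of these 31 genes, or 29.0%, against 37 of all 27025 genes with a window, or 0.137%. Among the 9 were 7 chaperones (Calr, Canx, Creld2, Dnajc3, Hsp90b1, Hspa5 and Pdia6) and 2 degradation genes (Derl3 and Syvn1). None of the 5 translocation genes with a window held it. Hsp90b1 held it at 2 places, once on each strand. A related element, ERSE-II, spelled ATTGGNCCACG, was found for Dnajb11, just after the start, and for Herpud1, and in 0.0444% of all genes with a window. The window of Vcp held TGACGTGG, an element bound by XBP1 and ATF6 that 0.714% of those genes carry. Herpud1 alone among the 31 also held TGATGNAA, part of the element that ATF4 recognises, which 4.51% of those genes hold. No letters are shared between these matches within a window. A match is a description of these letters and does not show that a factor bound there.

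Matched stretches are shown for 3 ERSE genes that were higher with ponatinib (Calr, Creld2, Dnajc3), for 3 that were not called (Hspa5, Canx, Pdia6), and for Herpud1, which was lower. Each is written 5′ to 3′ on the strand of its gene, with the fixed letters of the motifs in capitals. In Calr and Creld2 the element lies in reverse, so it begins with CGTGG.
Calr, chr8:84847065-84847103, minus strand: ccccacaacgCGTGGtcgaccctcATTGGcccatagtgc
Creld2, chr15:88819510-88819548, plus strand: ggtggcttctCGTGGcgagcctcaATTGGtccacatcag
Dnajc3, chr14:118937817-118937855, plus strand: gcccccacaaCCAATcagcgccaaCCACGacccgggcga
Hspa5, chr2:34772020-34772048, plus strand: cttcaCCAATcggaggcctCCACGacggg
Canx, chr11:50325790-50325828, minus strand: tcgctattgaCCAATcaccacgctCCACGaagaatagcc
Pdia6, chr12:17266481-17266519, plus strand: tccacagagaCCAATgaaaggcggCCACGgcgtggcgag
Herpud1, chr8:94386307-94386397, plus strand: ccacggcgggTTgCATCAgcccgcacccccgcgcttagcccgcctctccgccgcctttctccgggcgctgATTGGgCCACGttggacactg

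In Herpud1 the capitals mark the ATF4 element in reverse, beginning 112 bases before the start, and ERSE-II, beginning 52 bases before it. The Hspa5 element began 65 bases before the RefSeq start, and the annotation used for gene names, GENCODE M21, places it inside an exon of the transcript Hspa5-201.

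Levels were in TPM, which scale each gene by its length and by the library total, so levels can be compared between genes. Ponatinib was compared with DMSO with limma on log2(TPM + 1), over the 6816 genes whose mean reached 10 TPM, and a gene was called at a Benjamini-Hochberg adjusted p under 0.05. In bulk RNA, fewer cells making a transcript and less of it per cell cannot be told apart. DMSO replicate 3 stood apart from the other libraries: mitochondrially encoded genes held 4.78% of its TPM, against 9.76% and 10.7% in the remaining DMSO libraries and between 7.16% and 8.19% in the ponatinib libraries. Its part in the results was not tested beyond leaving it out. It was the highest of the DMSO libraries for 28 of the 32 tested members, or 87.5%, and for 63.1% of all tested genes. The median log2 fold change of all tested genes was 0.10 rather than 0, so values near 0.10 are level with the bulk of genes. TPM keep no depth, so how many reads stand behind each value is not known.

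The labelled cell type was checked on its markers. Cd8a stood at 227 to 245 TPM with DMSO and 331 to 371 TPM with ponatinib, and all 8 CD8 T cell markers passed the minimum. Of these 8, 4 were called higher with ponatinib (Cd8a, Cd8b1, Cd3e and Trbc2), where 27.3% of all tested genes were. Cd2 was called lower (-0.78, adjusted p = 0.00249), where 9.13% of all tested genes were, and Cd3d, Cd3g and Trac were not called. B and plasma cells, which are rich in ER chaperones, left little trace in their defining genes: Jchain reached at most 0.324 TPM, Sdc1 1.91 to 3.47 TPM and Mzb1 at most 1.81 TPM. Over all 13 B and plasma cell markers the sum was 244 to 279 TPM with DMSO and 304 to 320 TPM with ponatinib, of which Ighm made up 209 to 274 TPM. In that list, Igkc and Cd79b were called higher with ponatinib, and both reached the minimum mean only through the ponatinib libraries. Summed markers of other cells were low but, in each of the lists that follow, higher in every ponatinib library than in every DMSO library. The 4 CD4 T cell markers summed to 5.49 to 14.9 TPM with DMSO and 18.4 to 22.9 TPM with ponatinib. Foxp3 held 7.33 to 12.8 TPM with ponatinib against at most 1.42 TPM with DMSO, and Cd4 and Cd40lg were also higher in every ponatinib library. Zbtb7b was not, at 4.47, 1.67 and 9.53 TPM with DMSO and 1.35, 2.33 and 2.88 TPM with ponatinib, with overlap. The 13 myeloid markers went from 1.71 to 2.64 TPM up to 4.54 to 7.30 TPM, and the 9 erythroid and platelet markers from 0.910 to 1.99 TPM up to 4.25 to 8.47 TPM. The NK list was at 18.4 to 31.0 TPM and 34.5 to 43.8 TPM, nearly all from Eomes, which CD8 T cells express too. The part of these cells in the results was not tested.

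With ponatinib, 6 of the 32 tested genes rose, 3 fell and 23 did not pass the test. Higher were the lectin chaperone Calr, the disulfide isomerase Pdia3, the BiP co-chaperones Dnajb11 and Dnajc3, the stress-induced ER protein Creld2 and the degradation ATPase Vcp. Lower were Herpud1, an adaptor of the degradation complex, P4hb, the founding protein disulfide isomerase, and Spcs2, a signal peptidase subunit. All changes were small: the mean TPM of Calr was 1.38-fold higher and that of Herpud1 1.63-fold lower, and these were the largest in each direction. The share called higher was 18.8%, against 27.3% of all tested genes, and the share called lower was 9.38%, against 9.13%. The median log2 fold change of the 32 was 0.04, and 13 of them lay above and 19 below the median of all tested genes. The groups did not overlap in 8 genes with ponatinib above and 4 with ponatinib below, where 51.3% of all tested genes did not overlap.

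**Figure D1:**
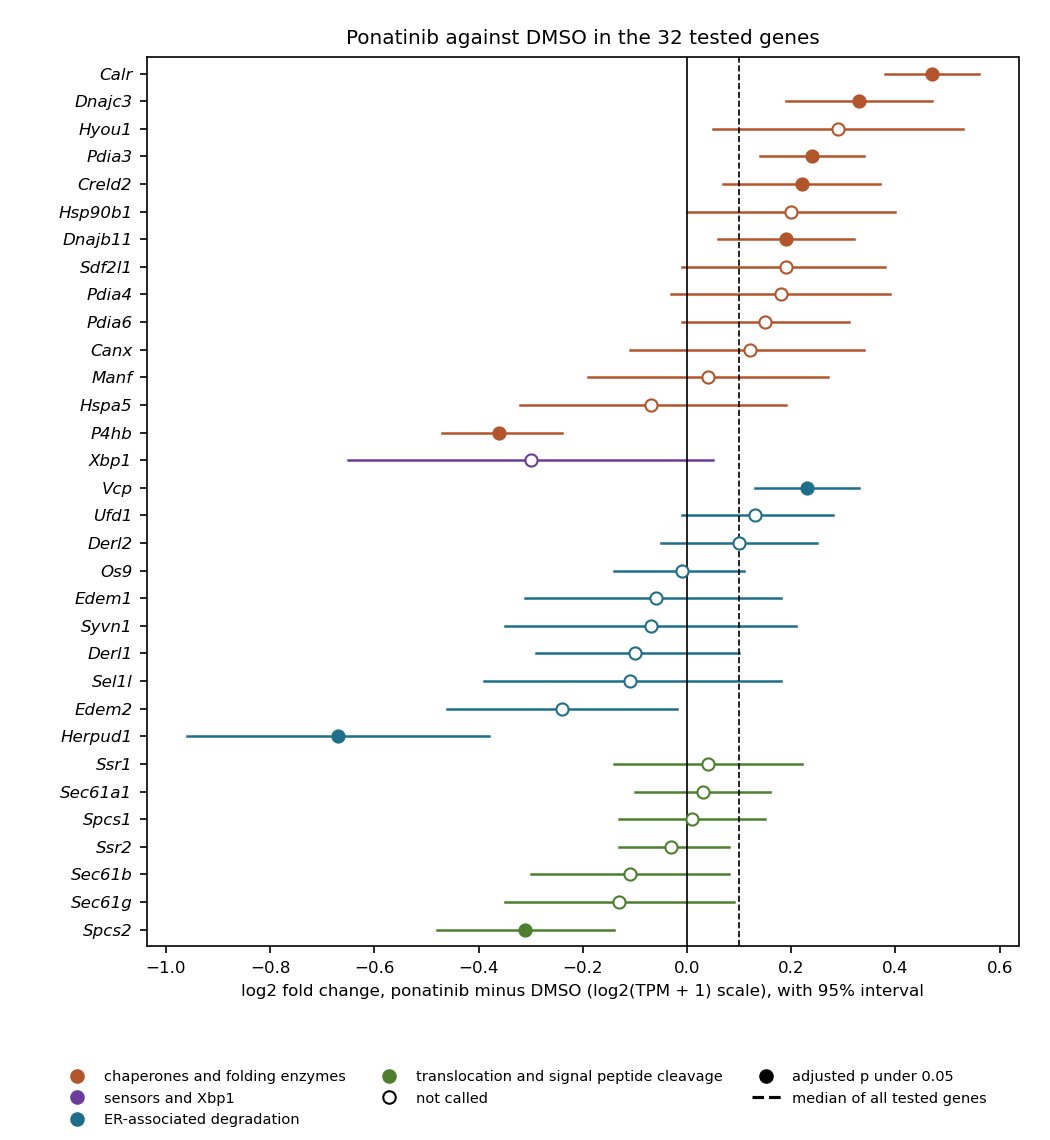
Log2 fold change (x axis, ponatinib minus DMSO on the log2(TPM + 1) scale) of the 32 tested genes (y axis, coloured by group). Points are limma estimates from 3 libraries per group and bars are 95% confidence intervals; filled points were called, the solid line is 0 and the dashed line is the median of all tested genes, 0.10. Most chaperones lie to the right of the dashed line and all translocation genes to its left.

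Scaling and DMSO replicate 3 moved these counts. With medians of ratios, which centre the bulk of genes on 0, 3 genes were higher (Calr, Pdia3 and Dnajc3; background 15.5%) and 6 lower (P4hb, Xbp1, Herpud1, Edem2, Sec61b and Spcs2; background 16.7%). Without DMSO replicate 3, 14 were higher, against a background of 39.3%, and 3 lower, against 9.86%. With both changes together, chosen after the data were seen, 6 were higher (background 18.4%) and 7 lower (background 19.9%). Calr, Pdia3, Dnajc3, P4hb and Herpud1 were called in the same direction under all 17 alternatives, and Spcs2 under 16.

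**Figure D2:**
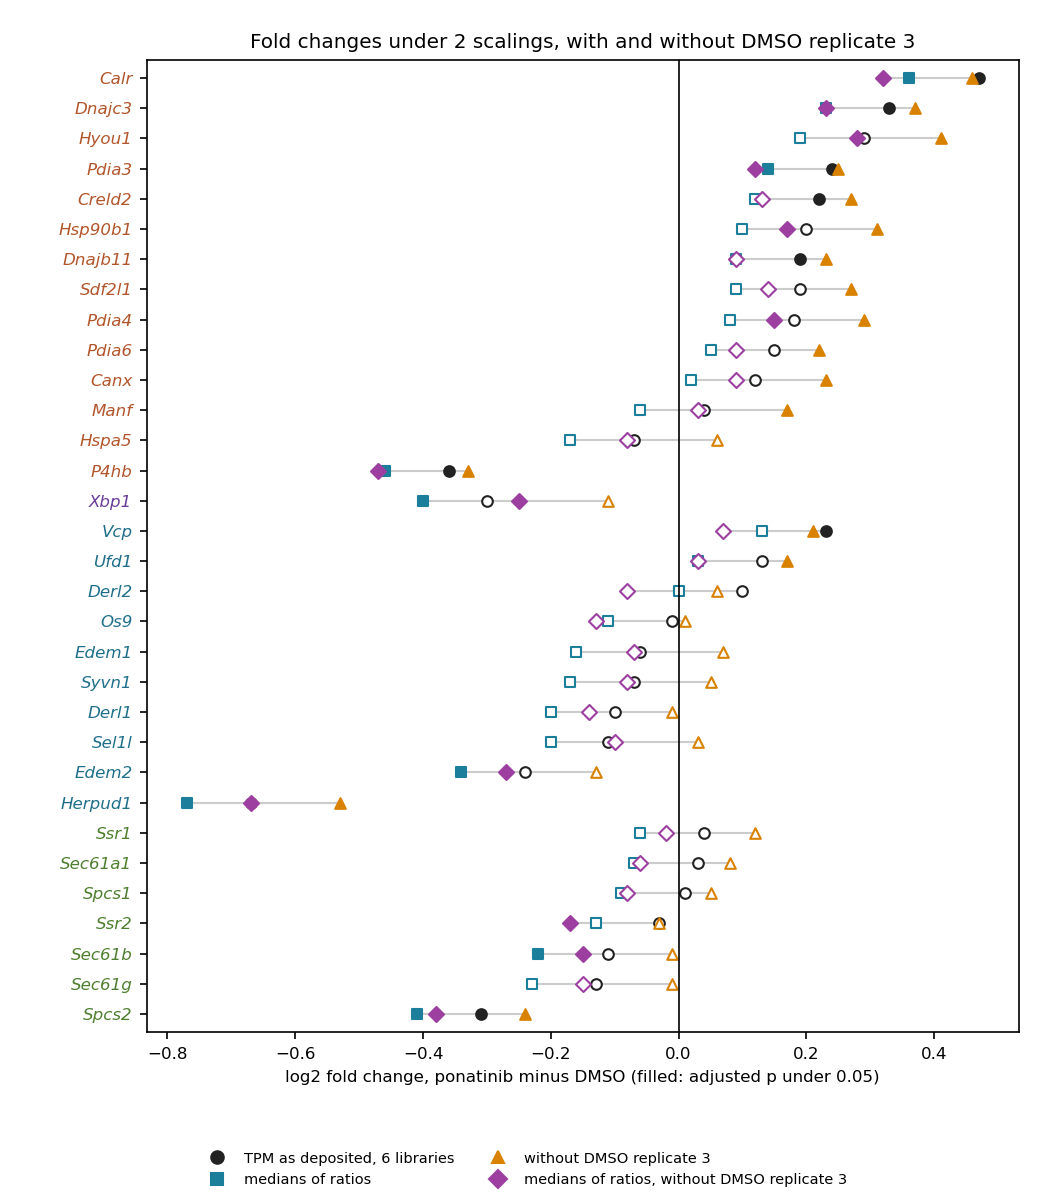
Log2 fold change (x axis) of the 32 tested genes (y axis) with TPM as deposited, with medians of ratios, without DMSO replicate 3, and with both changes. Filled symbols had an adjusted p under 0.05. Medians of ratios shift every gene to the left; leaving out DMSO replicate 3 shifts most chaperones to the right, where 12 of 14 are called higher, P4hb is called lower and Hspa5 alone is open.

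Among the chaperones, 14 of 15 were tested, of which 5 rose, 1 fell and 8 did not pass the test. The share that rose was 35.7%, against 27.3% of all tested genes, and the share that fell was 7.14%, against 9.13%. Both counts are thus near the background. Their median log2 fold change was 0.19, against 0.10 for all tested genes, and 11 of the 14 lay above that median. Summed over the 15 genes, levels were 3294, 3274 and 3813 TPM with DMSO and 3687, 3812 and 3871 TPM with ponatinib. DMSO replicate 3 thus lay within the ponatinib range, while the other DMSO libraries lay below it.

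Calr encodes calreticulin, which folds glycoproteins and helps load peptides on MHC class I. Its level was 543, 539 and 534 TPM with DMSO and 748, 754 and 734 TPM with ponatinib. The replicates of each group were close together and the groups far apart, and Calr was 1 of the 4 tested members for which DMSO replicate 3 was not the highest DMSO library. The log2 fold change was 0.47 (SE 0.04, adjusted p = 0.00027), and over the alternatives it ranged from 0.32 to 0.48. Calr (ENSMUSG00000003814) is a protein-coding gene of chromosome 8 (GRCm38, 84841850 to 84846934, minus strand). Pseudogenes named after Calr and Spcs2 are annotated but had no row in the deposited table, and how reads shared with such copies were assigned is unknown.

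Canx encodes calnexin, the membrane-bound relative of calreticulin. It stood at 217, 195 and 260 TPM with DMSO and 238, 232 and 253 TPM with ponatinib, so that the groups overlapped (log2 fold change 0.12, 95% interval -0.11 to 0.34). Pdia3 encodes ERp57, the disulfide isomerase that works with both lectins. It rose from 353, 343 and 359 TPM to 416, 407 and 422 TPM, every ponatinib library above every DMSO library (0.24, SE 0.04, adjusted p = 0.00466).

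P4hb moved the other way from Pdia3. Its product is protein disulfide isomerase, which is also the beta subunit of collagen prolyl 4-hydroxylase. Levels were 370.0, 365 and 390 TPM with DMSO and 280, 300.0 and 298 TPM with ponatinib, with no overlap. The log2 fold change was -0.36 (SE 0.05, adjusted p = 0.00178), from -0.47 to -0.33 over the alternatives. The related isomerase genes Pdia4 and Pdia6 were not called, at 99.7 ± 14.0 against 112 ± 2.42 TPM and 183 ± 16.5 against 203 ± 5.68 TPM (SD, n = 3 per group; adjusted p = 0.165 and 0.116). For Pdia4, DMSO replicate 3 (115.2 TPM) lay just above the highest ponatinib library (115.0 TPM). For Pdia6, DMSO replicate 3 (202 TPM) lay among the ponatinib libraries. Pdia4 and Pdia6 both passed the test without DMSO replicate 3, at 0.29 and 0.22.

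Hspa5, which encodes BiP, had the highest mean of the 37 genes over the 6 libraries pooled, 682 TPM. This rank is that of the DMSO group: in every ponatinib library Calr was higher. Without its decay transcript, described further on, the Hspa5 gene row was below Calr in both groups (490.7 and 476 TPM). Hspa5 stood at 615, 657 and 826 TPM with DMSO and 605, 694 and 694 TPM with ponatinib. DMSO replicate 3 was the highest library, the others overlapped, and the gene was not called (-0.07, 95% interval -0.32 to 0.19, adjusted p = 0.671). Its sign turned without DMSO replicate 3, to 0.06. Hsp90b1 encodes GRP94, the ER member of the HSP90 family. It stood at 363, 353 and 449.5 TPM with DMSO and 437, 437 and 457 TPM with ponatinib (0.20, adjusted p = 0.113), and was called without DMSO replicate 3 (0.31, adjusted p = 0.000858).

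Dnajc3 and Dnajb11 encode J-domain partners that bring clients to BiP. Dnajc3 rose from 30.5, 30.6 and 33.1 TPM to 39.8, 39.6 and 39.5 TPM (0.33, SE 0.06, adjusted p = 0.00518). Its ponatinib libraries were close together, with an SD of 0.139 TPM. Dnajb11 rose from 115, 123 and 129 TPM to 137, 141 and 141 TPM (0.19, adjusted p = 0.0286), and Creld2 from 54.0, 59.2 and 62.2 TPM to 66.7, 68.5 and 69.3 TPM (0.22, adjusted p = 0.0307). In neither gene did the groups overlap, but both calls were lost with medians of ratios (adjusted p = 0.179 and 0.127) and without any 1 of the libraries other than DMSO replicate 3.

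Hyou1, an exchange factor for BiP, stood at 79.4, 74.0 and 100.1 TPM with DMSO and 102, 101 and 104 TPM with ponatinib. All ponatinib libraries were above all DMSO libraries, by a narrow margin over DMSO replicate 3, and the gene did not pass the test (0.29, adjusted p = 0.0618). Sdf2l1, which acts in a complex with Dnajb11, and Manf, a stress-induced factor that binds BiP, were not called either, at 0.19 and 0.04 (adjusted p = 0.118 and 0.773). Manf was at 235 TPM in DMSO replicate 3 and at 185 and 178 TPM in the other DMSO libraries. The remaining co-chaperone, Dnajb9, which restrains IRE1, lay under the minimum, at 4.07 to 5.41 TPM with DMSO and 5.13 to 5.75 TPM with ponatinib. With the minimum mean at 1 TPM it was not called (0.22, adjusted p = 0.198).

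**Figure D3:**
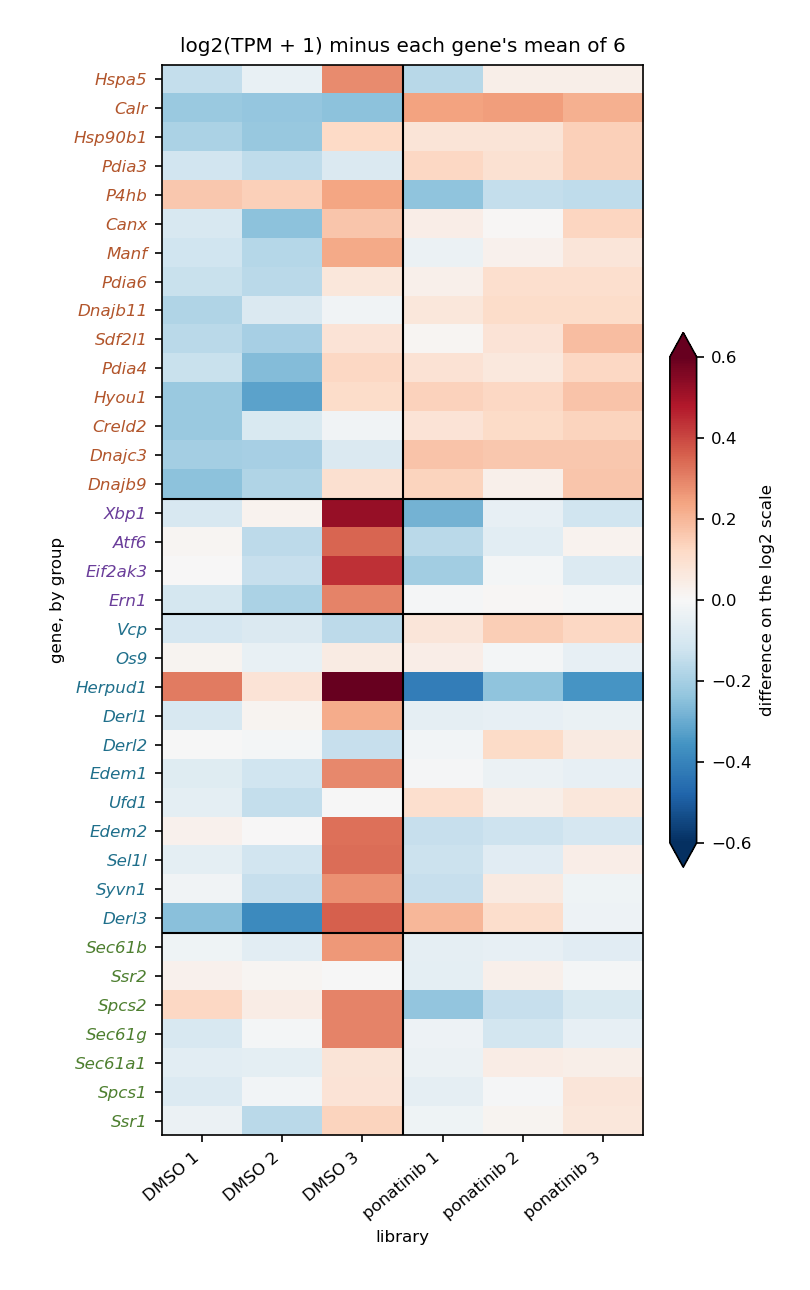
Log2(TPM + 1) of each of the 37 genes (rows, by group) in each library (columns), minus the gene's mean over the 6 libraries; the colour scale ends at 0.6 in both directions. Calr, Dnajc3 and Pdia3 are high in all ponatinib libraries, Herpud1 and P4hb are low in all of them, and DMSO replicate 3 is high for the sensors and most degradation genes.

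Sensor transcripts were scarce. Eif2ak3 (PERK) had a mean of 6.58 TPM, Atf6 8.45 TPM and Ern1 (IRE1) 1.06 TPM over the 6 libraries, whereas their output gene Xbp1 reached 118 TPM. Xbp1 stood at 109, 118 and 167 TPM with DMSO and 95.4, 112 and 107 TPM with ponatinib. The groups overlapped, and DMSO replicate 3 lay above every other library. The gene was not called (-0.30, 95% interval -0.65 to 0.05, adjusted p = 0.153), but it was lower with medians of ratios (-0.40, adjusted p = 0.0482). Without DMSO replicate 3 the value was -0.11. The value adds all transcripts of the gene, so spliced and unspliced Xbp1 mRNA, the direct readout of IRE1, are not separated.

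The 3 sensors lay under the minimum mean of 10 TPM. Eif2ak3 was at 6.51, 5.81 and 9.15 TPM with DMSO and 5.49, 6.44 and 6.07 TPM with ponatinib, Atf6 at 8.47, 7.41 and 10.9 TPM against 7.38, 7.99 and 8.52 TPM, and Ern1 at 0.907, 0.7995 and 1.52 TPM against 1.04, 1.06 and 1.04 TPM. In each of them DMSO replicate 3 was the highest of the 6 libraries. The other DMSO libraries lay within the ponatinib range for Atf6, within it and just above it for Eif2ak3, and below it for Ern1. With the minimum at 1 TPM none was called (adjusted p = 0.358, 0.489 and 0.984); Xbp1 was not called there either.

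**Figure D4:**
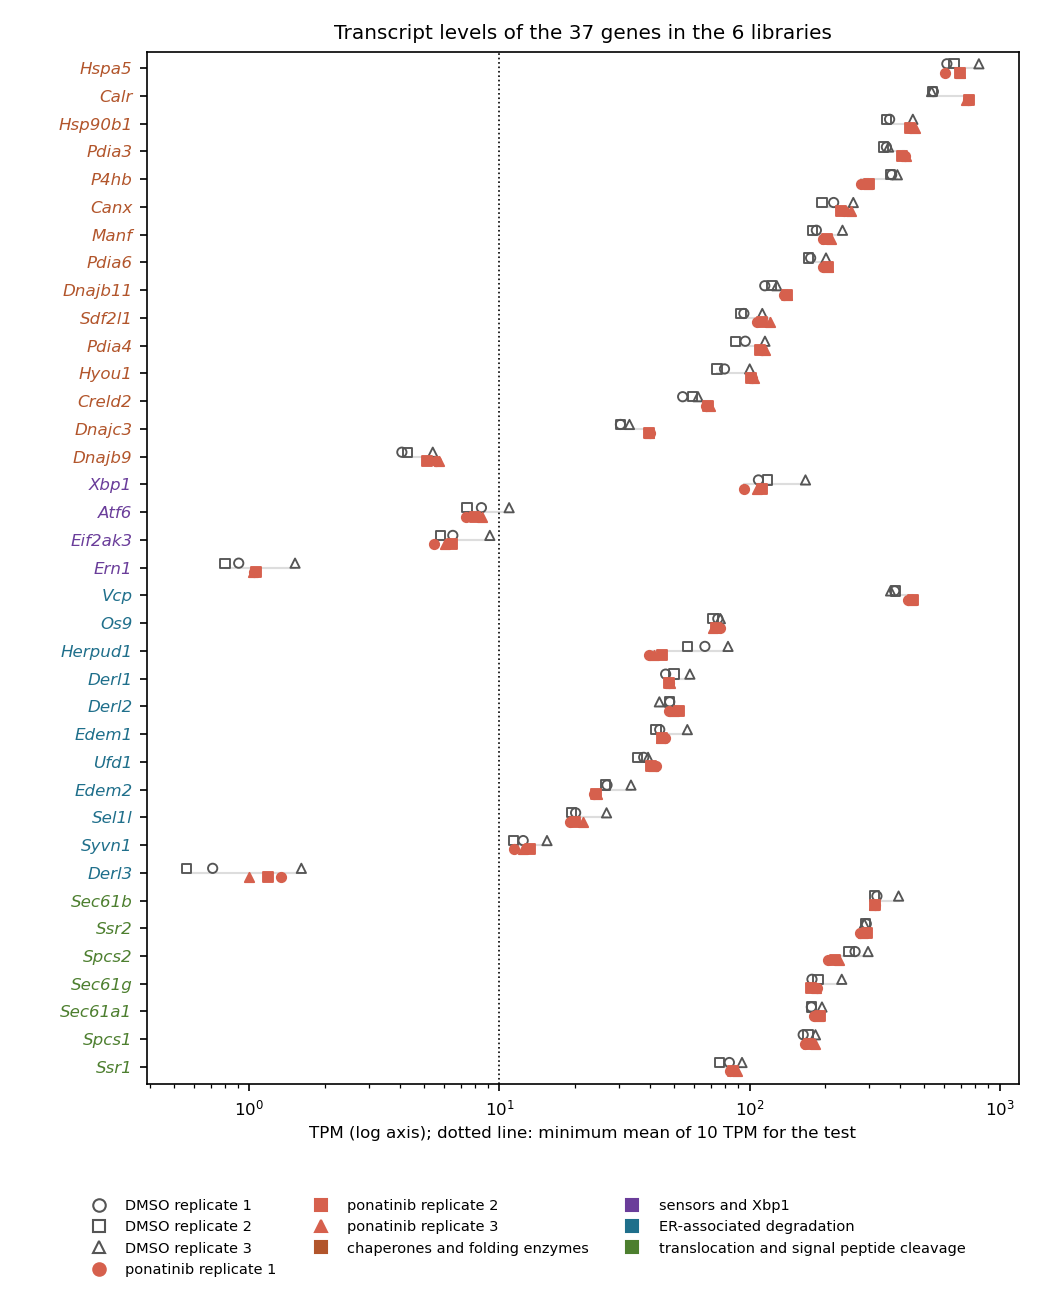
TPM (x axis, log scale) of the 37 genes (y axis, by group and falling level) in the 6 libraries. Open grey symbols are DMSO and filled red symbols ponatinib, with circles, squares and triangles for replicates 1, 2 and 3; the dotted line is the minimum mean for the test. The 3 sensors, Dnajb9 and Derl3 lie to its left, and Hspa5 and Calr have the highest pooled means.

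In the degradation group, 10 of 11 genes were tested, of which 1 rose, 1 fell and 8 did not pass the test. The shares were 10.0% in each direction, against 27.3% higher and 9.13% lower over all tested genes. Their median log2 fold change was -0.07, and 8 of the 10 lay below the median of all tested genes. Herpud1, which anchors and organises the HRD1 ubiquitin ligase complex and is induced by both the unfolded protein response and ATF4, had the largest change of the 37 genes. It stood at 66.3, 56.3 and 82.0 TPM with DMSO and 39.6, 44.7 and 41.4 TPM with ponatinib. Every ponatinib library was below every DMSO library. The log2 fold change was -0.67 (SE 0.13, adjusted p = 0.00556) and -0.53 without DMSO replicate 3. Herpud1 (ENSMUSG00000031770) is a protein-coding gene of chromosome 8 (GRCm38, 94386438 to 94395377, plus strand).

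The core of the same ligase complex was not called. Syvn1, the HRD1 ligase itself, was at 12.4, 11.4 and 15.5 TPM with DMSO and 11.4, 13.2 and 12.4 TPM with ponatinib, and its partner Sel1l at 20.2, 19.4 and 26.8 TPM against 19.2, 20.05 and 21.7 TPM. For both, DMSO replicate 3 was the highest library and the other DMSO libraries overlapped the ponatinib group (-0.07 and -0.11, adjusted p = 0.673 and 0.527). Both signs turned without that library, to 0.05 and 0.03.

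Edem1 and Edem2 encode mannosidase-like proteins that mark glycoproteins for disposal. Edem1 was at 43.7, 42.2 and 56.4 TPM with DMSO and 45.7, 44.8 and 44.4 TPM with ponatinib. Edem2 was at 26.9, 26.5 and 33.6 TPM with DMSO and 24.0, 24.2 and 24.6 TPM with ponatinib, without overlap. Edem2 missed the threshold (-0.24, adjusted p = 0.0828) and was lower with medians of ratios (-0.34, adjusted p = 0.0122). The lectin gene Os9 was nearly level, at 74.2 ± 2.52 against 73.5 ± 2.30 TPM, with a 95% interval of -0.14 to 0.11.

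Derlins line the membrane path out of the ER. Derl1 was at 51.3 ± 5.89 TPM with DMSO and 47.7 ± 0.247 TPM with ponatinib, and Derl2 at 46.4 ± 2.45 and 49.8 ± 2.33 TPM (adjusted p = 0.394 and 0.26). Derl3, best known from secretory cells, lay at 0.561 to 1.61 TPM with DMSO and 0.993 to 1.34 TPM with ponatinib.

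Vcp encodes p97, the ATPase that pulls substrates out of the membrane, and Ufd1 a cofactor of it. Vcp rose from 380, 384 and 366 TPM to 430, 452 and 445 TPM, with no overlap (0.23, SE 0.04, adjusted p = 0.00614). Relative to the median of all tested genes this was 0.13, and the call was lost with medians of ratios (adjusted p = 0.116). Ufd1 was at 37.7, 35.6 and 39.3 TPM with DMSO and 42.2, 40.3 and 41.2 TPM with ponatinib, all above the DMSO libraries, and did not pass the test (0.13, adjusted p = 0.123).

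All 7 translocation genes were tested, and 1 fell, none rose and 6 did not pass the test. Over all tested genes 27.3% rose and 9.13% fell, so 1 lower gene of 7 is near the background. None lay above the median of all tested genes, and their own median was -0.03. Their sum was 1481, 1467 and 1684 TPM with DMSO and 1414, 1457 and 1471 TPM with ponatinib, so that DMSO replicate 3 lay above all other libraries. Spcs2, a subunit of the signal peptidase, was the gene that fell, from 264, 249.5 and 298 TPM to 205, 219.6 and 227 TPM. The groups did not overlap (-0.31, SE 0.07, adjusted p = 0.0135). Leaving out ponatinib replicate 1 ended this call (adjusted p = 0.0501).

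The other subunit gene of the signal peptidase in the group, Spcs1, was at 164, 171 and 183 TPM with DMSO and 167, 173 and 182 TPM with ponatinib, with full overlap (0.01, 95% interval -0.13 to 0.15). The channel gene Sec61a1 was at 183 ± 10.2 and 187 ± 5.75 TPM (0.03, 95% interval -0.10 to 0.16). The small channel subunits Sec61b and Sec61g were at 344 ± 43.6 against 316 ± 2.22 TPM and 199.8 ± 29.8 against 182 ± 5.23 TPM, with DMSO replicate 3 the highest library in both. Neither was called (-0.11 and -0.13), although Sec61b was lower with medians of ratios (-0.22, adjusted p = 0.0381). Ssr1 and Ssr2, of the translocon-associated complex that assists some signal peptides, were not called, at 0.04 and -0.03. The intervals of Ssr1, from -0.14 to 0.22, and Ssr2, from -0.13 to 0.08, exclude changes of the size seen in Calr.

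For 12 of the 37 genes the table also listed transcripts apart from the gene row, and these were added to the gene. They mattered for Hspa5, Spcs2 and Ufd1. The transcript Hspa5-204, annotated as a target of nonsense-mediated decay, held 173, 215 and 238 TPM with DMSO and 148, 207 and 209 TPM with ponatinib, and was not called when rows were kept apart (adjusted p = 0.49). For Spcs2, the gene row fell from 109 ± 4.59 to 75.0 ± 11.3 TPM and the decay transcript Spcs2-204 from 107 ± 8.95 to 84.9 ± 3.31 TPM (adjusted p = 0.00964 and 0.0124). The protein-coding transcript Spcs2-207 was not called, at 54.6 ± 12.4 and 57.5 ± 3.55 TPM. The Ufd1 gene row alone rose from 27.2 ± 1.54 to 34.1 ± 0.449 TPM (0.32, adjusted p = 0.00866), while its decay transcript Ufd1-209, under the minimum, was at 9.70 ± 1.03 and 6.93 ± 0.737 TPM. The fit on rows kept apart was chosen after the data were seen.

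**Figure D5:**
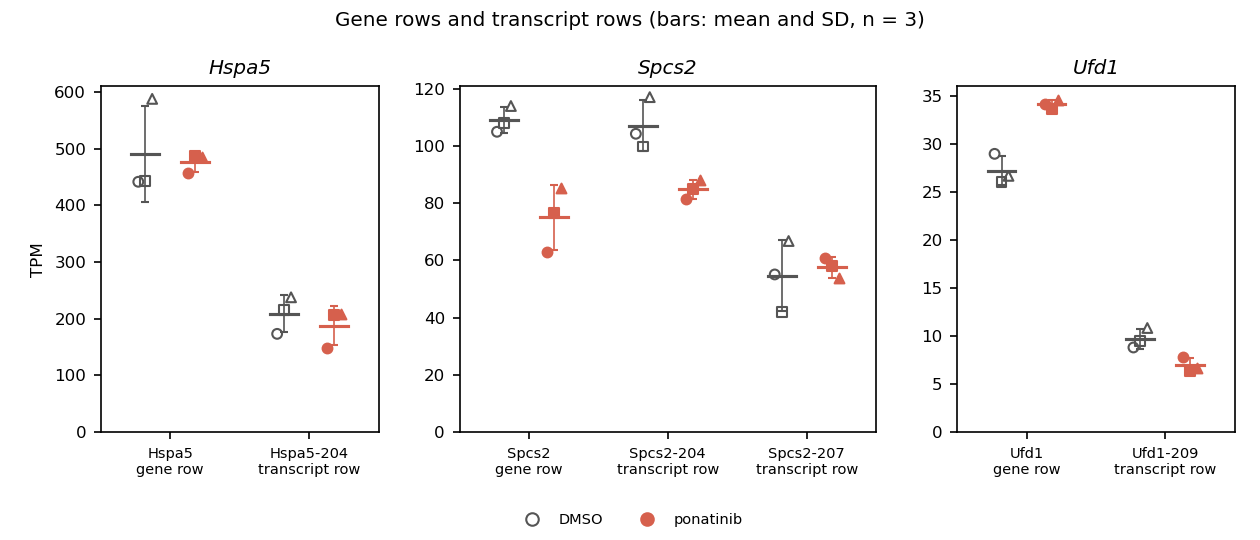
TPM (y axis, from 0) of the gene row and of the transcript rows with a mean of at least 5 TPM for Hspa5, Spcs2 and Ufd1. Open grey symbols are DMSO, filled red symbols ponatinib, with circles, squares and triangles for replicates 1, 2 and 3, and lines show the mean and SD (n = 3). The Spcs2 gene row and Spcs2-204 are lower with ponatinib and Spcs2-207 is not, and the Ufd1 gene row and its decay transcript lie in opposite directions.

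Genes with ERSE in the promoter window did not move as 1 block. Of the 9 members with the element, 8 were tested, of which 3 rose and 0 fell, with a median log2 fold change of 0.18. Over all tested genes 27.3% rose and 9.13% fell, with a median of 0.10, so the count of 3 in 8 is near the background. Of the 28 other genes with it only 2 passed the minimum, so the comparison rests on the members. Hspa5, Hsp90b1, Canx, Pdia6 and Syvn1 carry the element and were not called, while Pdia3, which rose, and P4hb and Spcs2, which fell, have no ERSE match in the window.

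Beyond the 37 genes, other genes of the same pathways moved in both directions. The counts that follow stand against 27.3% higher, 9.13% lower and a median of 0.10 over all tested genes. Of 21 tested further folding genes, 1 rose and 4 fell, with a median log2 fold change of -0.04. Calu, a calcium-binding chaperone of the secretory pathway, rose from 76.4 ± 7.14 to 90.5 ± 2.14 TPM, a call lost with medians of ratios (adjusted p = 0.0819). The largest change was that of Ero1a, the oxidase that recharges protein disulfide isomerase, from 118, 109 and 213 TPM to 50.5, 53.4 and 55.7 TPM (-1.38, SE 0.22, adjusted p = 0.0032). All ponatinib libraries were below all DMSO libraries, and DMSO replicate 3 was the highest. Cnpy2, an ER-resident saposin-like protein, fell from 105 ± 12.6 to 70.2 ± 6.07 TPM.

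Of 16 tested further degradation genes, 2 rose and 2 fell (median 0.01). Ube2g2, a ubiquitin-conjugating enzyme of this route, rose from 30.6 ± 3.44 to 43.2 ± 2.60 TPM, and Nploc4, which pairs with Ufd1 on p97, from 47.9 ± 1.60 to 55.0 ± 2.24 TPM. Erlec1, an ER lectin, fell from 15.8 ± 2.34 to 11.7 ± 1.29 TPM. Of 27 tested further translocation and N-glycosylation genes, 3 rose and 3 fell (median -0.02). Among these, Krtcap2, a subunit of oligosaccharyltransferase, fell from 167, 173 and 215 TPM to 132, 125 and 129 TPM. Srpr, the receptor for the signal recognition particle, rose from 88.1 ± 2.91 to 107 ± 7.64 TPM, and Stt3b, a catalytic subunit of the transferase, from 102 ± 2.98 to 116 ± 1.34 TPM. The calls of Nploc4 and Stt3b were lost with medians of ratios (adjusted p = 0.178 and 0.266).

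The last list held other stress transducers and genes of the arm that runs through PERK and ATF4. Of its 24 genes 19 were tested, of which 4 rose, 4 fell and 11 did not pass the test (median -0.01). Those that fell had larger changes than any of the 37 genes. Atf4, the transcription factor itself, was at 343, 317 and 486 TPM with DMSO and 146, 173 and 178 TPM with ponatinib (-1.18, SE 0.15, adjusted p = 0.00145). Trib3, which feeds back on ATF4, fell by 2.97 on the log2 scale, from 51.5 ± 15.1 to 5.52 ± 0.296 TPM. Sesn2, an inhibitor of mTORC1, fell from 18.1 ± 4.70 to 7.08 ± 0.302 TPM. Trib3 and Sesn2 reached the minimum mean only through the DMSO libraries, where they are high. Ddit3, which encodes CHOP and was picked out after its values were seen, fell from 37.3, 24.1 and 68.8 TPM to 12.8, 11.5 and 14.1 TPM (adjusted p = 0.00746). In all of these the groups were apart and DMSO replicate 3 was the highest library. Genes under the minimum are not in these counts. Among them, Chac1 (14.3 ± 2.62 against 1.53 ± 0.354 TPM), Cebpb (15.5 ± 5.77 against 4.06 ± 0.530 TPM) and Nupr1 (6.61 ± 5.78 against 0.283 ± 0.241 TPM) were lower in every ponatinib library. For Creb3l2 and Wfs1 the groups overlapped.

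The 4 that rose did so by less, and they were likewise picked out after their values were seen. Atf6b, the relative of Atf6, rose from 38.9 ± 0.695 to 47.9 ± 1.31 TPM (0.29, adjusted p = 0.00575), and it alone was still higher with medians of ratios (adjusted p = 0.0295). Mbtps1, the protease that makes the first cut in ATF6, rose from 28.9 ± 0.705 to 34.2 ± 0.308 TPM. Rtcb, the ligase that rejoins Xbp1 mRNA after IRE1 has cut it, and Bloc1s1, a transcript known to be degraded by IRE1, rose by 0.13 and 0.34 on the log2 scale (adjusted p = 0.0474 and 0.0177). With medians of ratios, the counts of these lists moved to 0 higher and 7 lower for folding, 1 and 3 for degradation, 1 and 6 for translocation and N-glycosylation, and 1 and 5 for the stress transducers, where 15.5% of all tested genes were higher and 16.7% lower.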

How the data were processed

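Libraries had been made with a NEBNext Ultra II RNA kit, per the labels' protocols. The authors deposited 1 table whose columns each sum to 1000000, and its values were read as TPM. DESeq2 1.22.1, Salmon 1.5.1, fastp 0.19.5 and GRCm38 are listed, without roles, per the submitters' processing notes; the annotation and the summing of transcripts are not given in the sources used here. Names and coordinates came from GENCODE M21, whose versions matched those of 11 of 43072 rows, so the authors' annotation was another one. Transcript rows were added to their gene, which gave 22288 rows. Promoter sequences came from RefSeq (GRCm38.p6); 2 symbols, Ero1a and Ero1b, were matched through RefSeq synonyms.

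Genes whose mean reached 10 TPM (6816) were tested across all genes with limma 3.58.1 in R 4.3.3, on log2(TPM + 1), with an intensity trend, two-sided and without the replicate number; fold changes on this scale understate changes of low genes. The script was tested on simulated data. The members, the lists and the rule for named genes (all members, and the 3 smallest p of each other list) were chosen with earlier results of these data known. Of the 17 alternatives, 15 were listed with the tests and 2 were added after seeing the files.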

Additional observations from a re-analysis of the deposited data

How the results depend on the processing

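Of 6 members called higher and 3 called lower, medians of ratios left 3 and gave 6, quantile normalization left 3 and gave 4, and medians of ratios without DMSO replicate 3 gave 6 and 7. Both scalings gave 3 higher chaperones, and 0 higher and 2 lower degradation genes. Medians of ratios also gave 1 lower among sensors and Xbp1, and 2 lower translocation genes. With DMSO replicate 3 left out as well, these were 0 higher and 2 lower degradation genes, 1 lower among sensors and Xbp1, and 3 lower translocation genes. Gene rows alone and rows as deposited gave 2 higher degradation genes. With 1 library left out, 4 to 14 members were higher and 2 to 3 lower, with 3 to 12 chaperones higher, 1 to 2 degradation genes higher and 0 to 1 translocation genes lower. Pseudocounts of 0.1 and 5, both lower minimums and robust empirical Bayes kept the counts at 6 and 3. Over all tested genes, 27.3% were higher and 9.13% lower with TPM as deposited, and 15.5% and 16.7% with medians of ratios. Without DMSO replicate 3 these shares were 39.3% and 9.86%, and with both changes 18.4% and 19.9%. For the remaining alternatives the shares are not given here, so their counts are not read as results about the members.

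Signs turned in members that were not called with TPM as deposited and all libraries: with medians of ratios Manf (-0.06), Sec61a1 (-0.07), Ssr1 (-0.06) and Spcs1 (-0.09), with quantile normalization the same genes (-0.02, -0.03, -0.04 and -0.05), and with medians of ratios without DMSO replicate 3 Derl2 (-0.08), Sec61a1 (-0.06), Ssr1 (-0.02) and Spcs1 (-0.08). With 1 library left out, values ranged from -0.03 to 0.17 for Manf, -0.03 to 0.05 for Spcs1, -0.03 to 0.12 for Ssr1, -0.15 to 0.06 for Hspa5, -0.14 to 0.07 for Edem1, -0.19 to 0.03 for Sel1l, -0.16 to 0.05 for Syvn1 and -0.04 to 0.01 for Os9. The cause was not tested.

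The replicate number as a block gave 8 higher and 3 lower members, with Hyou1 and Sdf2l1 added (adjusted p = 0.0388 and 0.0464). The labels do not say whether same-numbered libraries shared anything but a number. Their deviations from the group means correlated at -0.10, 0.114 and 0.023 across 6816 genes, and those of other pairs at -0.144 to 0.103. Such deviations cancel within each group of 3 libraries, so these correlations cannot decide whether the libraries were paired. Depth is unknown, so changes in the sensors and in Dnajb9 and Derl3, all near or under 10 TPM, are limited by it to an extent that cannot be given.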
